A study of Mus musculus with 8 samples.

Results

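The genes described here encode the proteins of the cytosolic ribosome. They were taken as all protein-coding rows of the deposited normalized table whose symbol is Rps or Rpl followed by a number and at most 1 letter of a, x or y, together with Rplp0, Rplp1, Rplp2 and Rpsa. The rule found 76 genes among the 16418 genes of that table, 30 of the small subunit and 46 of the large subunit. All 76 were among the 11772 genes that passed the count filter and were tested. A few further ribosomal proteins carry other symbols, among them Rps3a1, Fau and Rack1, and these were kept apart from the 76.

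The libraries were made from polyadenylated RNA of sorted naive CD4 T cells (CD3+CD4+CD25-CD44low/-CD62L+) of spleen and lymph node, although the extraction protocol speaks of splenic cells. The 4 KO samples came from mice that had received tamoxifen, and the 4 WT samples from mice that had not. Every sample, WT included, carried the same genotype, Satb1fl/fl x CD4-CreERT2wt/+, so both groups shared the floxed Satb1 alleles and a Cre under CD4 control that tamoxifen activates. The WT cells were therefore floxed, Cre-bearing and untreated, and the drug and the deletion cannot be told apart. No label gives the age of the mice or says whether the samples came from separate animals. The p-values thus measure the spread between these samples, which may be technical. The KO libraries are Sample_2907_KO, Sample_2908_KO, Sample_2909_KO and Sample_2910_KO. The WT libraries are Sample_2911_WT, Sample_2913_WT, Sample_2914_WT and Sample_2915_WT. Values are always listed in these orders. Levels are given as CPM, the reads of a gene relative to all counted reads of its library, scaled between libraries by TMM, a normalization that takes most genes as unchanged.

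The libraries held between 7544075 and 9253620 counted reads in KO, and 5227758, 5577422, 21998174 and 11507880 in WT, so that Sample_2914_WT was the deepest of the 8. Markers of naive CD4 T cells (10 genes, including Cd3e, Cd4 and Ccr7) summed to between 8030 and 8647 CPM in KO and between 7976 and 8499 CPM in WT. B cell markers summed to at most 5.57 CPM in KO and 4.30 CPM in WT, with Ms4a1 and Pax5 below the minimum of the normalized table. Myeloid and dendritic cell markers summed to at most 25.5 CPM in KO and 41.5 CPM in WT. CD8 T cell markers summed to at most 14.6 CPM in KO and 18.5 CPM in WT. NK, erythroid and platelet markers summed to at most 6.05 CPM in any library. These sums are CPM without TMM scaling. Counts over the whole of Satb1 had a mean and SD over 4 libraries of 909.9 ± 87.2 CPM in KO, against 1033 ± 41.4 CPM in WT. Those groups overlapped (edgeR adjusted p = 0.0582), and a count over the whole gene does not measure the loss of a part of it.

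The eukaryotic ribosome has a small subunit, which reads the mRNA, and a large subunit, which forms the peptide bond and carries a flexible stalk of P proteins that recruits the elongation factors. Most of the proteins are needed in equal numbers, and ribosomal protein genes are usually expressed together and at very high levels. Their mRNAs begin with a stretch of pyrimidines, the 5′ terminal oligopyrimidine (TOP) motif, through which mTOR and LARP1 control their translation. Resting naive T cells keep protein synthesis low and raise it sharply on activation. Ribosomal protein genes have also left many processed pseudogenes in mammalian genomes, which are intronless copies of their mRNAs.

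Since a short read from a gene and one from such a copy cannot always be told apart, the coding sequences were compared with all annotated mouse transcripts. The middle 75 bases of the coding sequence, as long as 1 sequencing read, are shown for the 3 genes that lay furthest below the other WT libraries in Sample_2914_WT on the log2 CPM scale and for Rps3, which lay close to them. Sequences are from the GENCODE M21 transcripts of GRCm38, the assembly behind mm10, and run 5′ to 3′. Rpl35 (ENSMUSG00000062997.6) lies at chr2:39001580-39005624, minus strand, Rpl28 (ENSMUSG00000030432.12) at chr7:4792874-4795066, plus strand and Rpl19 (ENSMUSG00000017404.12) at chr11:98026710-98030492, plus strand. Rps3 (ENSMUSG00000030744.13) lies at chr7:99477896-99483738, minus strand. Capitals in a copy mark bases that differ from the gene named before it.
Rpl35: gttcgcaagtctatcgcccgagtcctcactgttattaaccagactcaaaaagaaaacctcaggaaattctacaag
Rpl28: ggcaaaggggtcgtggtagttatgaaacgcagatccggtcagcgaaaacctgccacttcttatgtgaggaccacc
Rpl19: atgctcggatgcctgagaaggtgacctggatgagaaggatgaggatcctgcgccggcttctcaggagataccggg
Rps3: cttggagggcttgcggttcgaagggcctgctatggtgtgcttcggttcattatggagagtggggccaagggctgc
Gm8130, nearest match to Rps3: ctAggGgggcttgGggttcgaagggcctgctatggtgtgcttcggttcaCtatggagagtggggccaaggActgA

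The Rpl35, Rpl28 and Rpl19 stretches occurred without a mismatch in processed pseudogenes. The Rpl35 stretch was found in Gm4342 (chr8:123853829-123854195, plus strand), the Rpl28 stretch in Gm10051 (chr5:133475123-133475536, plus strand) and the Rpl19 stretch in Rpl19-ps1 (chr1:85012114-85012704, plus strand). A read from these stretches has more than 1 exact source in the annotation. The nearest match to the Rps3 stretch, in the pseudogene Gm8130 (chr16:23050282-23050851, plus strand), differed at 6 bases.

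Start sites were read from the RefSeq promoter table (GRCm38.p6), which held 56 of the 76 genes. The pattern searched was a C at the annotated start base followed by at least 4 bases that are each C or T, read only on the strand of the gene since it is anchored at the start. It was present at 13 of the 56 genes (23.2%) and at 813 of all 27025 genes in the table (3.01%). A match describes the letters at the annotated start and nothing more. Windows of 15 bases on each side of the start show the pattern in genes whose values are described later, with the C and the run of pyrimidines after it in capitals.
Rpl35 (chr2:39005117-39005146, minus strand): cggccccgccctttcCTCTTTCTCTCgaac
Rpl28 (chr7:4792950-4792979, plus strand): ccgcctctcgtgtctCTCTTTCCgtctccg
Rps6 (chr4:86857353-86857382, minus strand): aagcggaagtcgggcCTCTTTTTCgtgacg
Rpl38 (chr11:114668565-114668594, plus strand): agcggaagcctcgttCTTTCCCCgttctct
Rplp2 (chr7:141447636-141447665, plus strand): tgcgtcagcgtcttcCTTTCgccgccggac
Rps27 (chr3:90213634-90213663, minus strand): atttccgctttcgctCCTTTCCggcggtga

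Levels of single genes spanned a wide range. Per kilobase of coding sequence, the mean level over the 8 libraries ran between 5.96 and 5057 CPM, with a median of 1199 CPM. The 8 highest genes on this scale were Rps27, Rpl41, Rps29, Rplp1, Rps24, Rpl12, Rps15 and Rps3. Rps27, a zinc-binding protein of the small subunit, stood at 5057 CPM per kilobase, and Rpl41, whose coding sequence is only 75 bases long, at 4279. The scale divides all reads of a gene by its coding length alone, which raises genes with a short coding part in a longer transcript. Rpl41 has a transcript of 544 bases. Its mean of 321 CPM was below the median of 613 CPM over the ribosomal protein genes. The 5 lowest were Rpl24 (5.96 CPM per kilobase), Rpl13a (75.2), Rpl35 (307), Rpl23a (309.6) and Rpl15 (375). All of the coding 75-base stretches of Rpl24, Rpl23a and Rpl15 occur in a gene elsewhere, against 12.1% for Rpl13a and 82.4% for Rpl35. Full sharing was not particular to low genes, since it also held for Rps27, Rpl41, Rps29 and Rpl12 among the 8 highest. How the authors' counting treated reads with several sources is not given in the sources used here, so levels of the shared genes are uncertain. The same holds for the 45 members whose span overlaps another annotated gene, since the library kit does not mark the strand.

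Together the 76 genes took 5.14%, 4.999%, 5.56% and 5.12% of the counted reads in the KO libraries, and 5.66%, 5.80%, 4.04% and 5.72% in the WT libraries. Sample_2914_WT was the lowest of all 8, at 70.5% of the mean of the other 3 WT libraries, and those 3 lay above every KO library. Counting error was small beside these differences. The 95% Wilson interval was 4.03% to 4.04% in Sample_2914_WT and 5.64% to 5.68% in Sample_2911_WT, the shallowest library, and covers counting error only. The group means were 5.20% ± 0.243 in KO and 5.30% ± 0.846 in WT (SD, n = 4 each), a difference within the spread of the WT libraries. Over the 3 WT libraries without Sample_2914_WT the mean was 5.72% ± 0.0674 (SD, n = 3). In bulk RNA such as this, fewer cells of a type and less RNA per cell cannot be told apart.

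**Figure D1:**
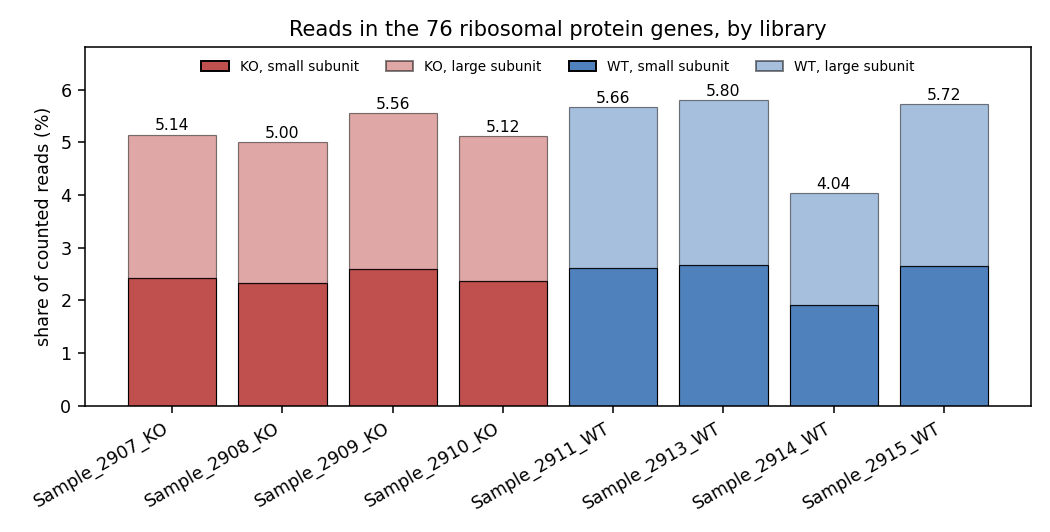
Share of counted reads (%, vertical axis) in the 76 ribosomal protein genes in each library, KO in red at left and WT in blue at right, split into small subunit (darker, bottom) and large subunit (lighter, top), with the total above each bar. Sample_2914_WT, at 4.04%, is below all other libraries, and the other WT libraries, at 5.66% to 5.80%, are above all KO libraries.

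Small subunit genes took 2.41%, 2.33%, 2.59% and 2.37% of reads in KO, against 2.62%, 2.67%, 1.91% and 2.65% in WT. Large subunit genes took 2.73%, 2.66%, 2.96% and 2.75% in KO, against 3.04%, 3.13%, 2.13% and 3.07% in WT. In each subunit Sample_2914_WT was the lowest and the other WT libraries were above every KO library. The ratio of small to large subunit reads lay between 0.863 and 0.884 in KO and between 0.854 and 0.896 in WT, highest in Sample_2914_WT.

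Gene by gene, each library was compared with the mean of all 8 on the log2 CPM scale. Sample_2914_WT was the lowest of the 8 libraries for 64 of the 76 genes (84.2%), whereas it was the lowest for 10.3% of all tested genes. Sample_2913_WT was the highest for 34 of the 76, and for 14.2% of all tested genes. The median deviation of the 76 genes was -0.48 in Sample_2914_WT, with quartiles of -0.65 and -0.29. In the KO libraries the medians were 0.01, -0.03, 0.10 and -0.01, and in Sample_2911_WT, Sample_2913_WT and Sample_2915_WT they were 0.13, 0.16 and 0.12. Medians over all tested genes stayed between 0.00 and 0.01 in all 8 libraries. The ribosomal protein genes of Sample_2914_WT thus stood apart from the rest of its own library as well as from the other libraries.

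**Figure D2:**
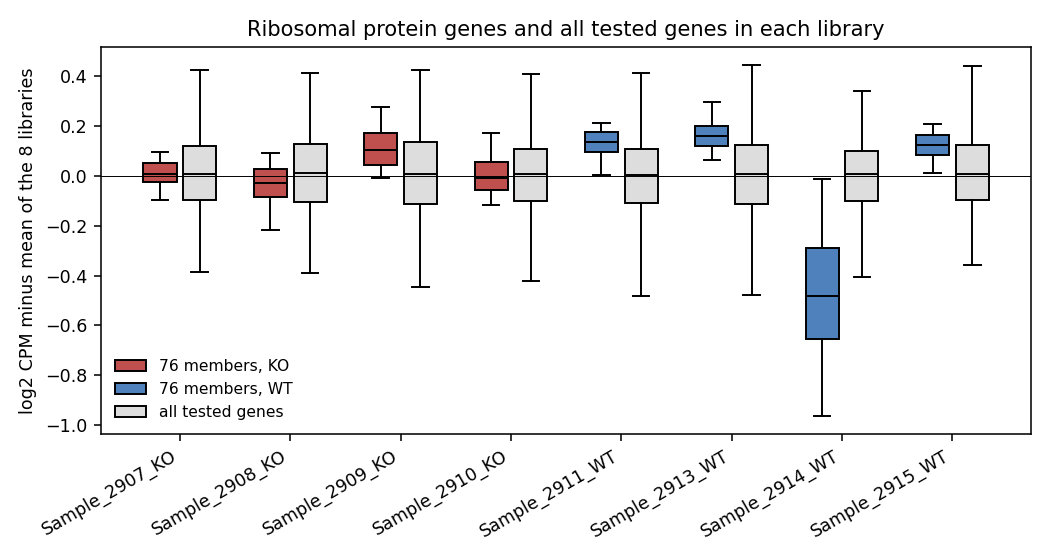
Deviation of each library from the mean of the 8 (log2 CPM, vertical axis) for the 76 ribosomal protein genes (colored boxes, KO red, WT blue) and for all tested genes (grey boxes). Boxes span the quartiles with a line at the median, and whiskers run between the 5th and 95th percentiles. Only in Sample_2914_WT is the box of the 76 genes wholly below 0, with a median of -0.48.

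The comparison of KO with WT asks what loss of the chromatin organizer SATB1, together with tamoxifen treatment, does to gene expression in naive CD4 T cells. No ribosomal protein gene was called changed in the 4 KO against the 4 WT libraries (edgeR quasi-likelihood test, adjusted p under 0.05), whereas 3.98% of all tested genes were called higher and 2.41% lower in KO. At an unadjusted p under 0.05 edgeR picked 2 of the 76, Rpl8 and Rps3, and 18% of all tested genes. DESeq2 called 0, against 5.7% of all genes, with 3 at the unadjusted threshold, against 12.9%. Limma-voom called 0, against 6.44%, with 4 at the unadjusted threshold, against 19%. Limma-trend on the deposited normalized values called 0, against 4.14%, with 2 at the unadjusted threshold, against 15%. The median log2 fold change over the 76 genes was 0.01, with quartiles of -0.06 and 0.07, and over all tested genes it was 0.00. Of the 76, 43 had a positive and 33 a negative value, and 72 lay within 0.2 of 0. The median standard error of these values was 0.15. For none of the 76 were the 4 KO and 4 WT libraries without overlap, while all KO libraries lay above all WT libraries for 6.23% of the tested genes and below them for 4.86%.

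Among the small subunit genes, Rps3, which lines the channel where mRNA enters the ribosome, had 1753, 1726, 1826 and 1682 CPM in KO, against 1922, 1887, 1797 and 1947 CPM in WT. Sample_2914_WT lay within the KO range, and the other 3 WT libraries lay above all KO libraries. The difference of Rps3 did not pass the test (log2 fold change -0.11 ± 0.05 SE, adjusted p = 0.215). Rps6, the substrate of the S6 kinases downstream of mTOR, had 735, 733, 774 and 748 CPM in KO, against 820.1, 799, 416 and 760.2 CPM in WT. Here Sample_2914_WT stood far below the other 7 libraries. The log2 fold change of Rps6 was 0.10 with it (adjusted p = 0.876) and -0.09 without it (adjusted p = 0.463).

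Rps19, the gene most often mutated in Diamond-Blackfan anaemia in humans, had 623, 586, 664 and 605 CPM in KO, against 668, 668, 488 and 656 CPM in WT. Its WT libraries were close together except for Sample_2914_WT (log2 fold change 0.00 ± 0.09 SE, adjusted p = 0.996). Rps4x, the X-linked small subunit gene, had 1398, 1462, 1422 and 1403 CPM in KO, against 1582, 1577, 1024 and 1617 CPM in WT, again with Sample_2914_WT lowest and the other WT libraries highest (log2 fold change -0.03 ± 0.15 SE, adjusted p = 0.957). Rpsa, which also gives rise to the laminin receptor, had 1292, 1180.2, 1339 and 1298 CPM in KO, against 1383, 1394, 735 and 1414 CPM in WT (log2 fold change 0.06 ± 0.22 SE, adjusted p = 0.942). Sample_2914_WT held 52.6% of the mean of the other WT libraries for that gene.

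Rps27a encodes a ribosomal protein fused to ubiquitin. It had 552, 573, 566 and 510.5 CPM in KO, against 585, 586, 391 and 614 CPM in WT, and its log2 fold change was 0.02 (adjusted p = 0.969). The highly expressed Rps24 and Rps15 had log2 fold changes of -0.06 (adjusted p = 0.81) and 0.03 (adjusted p = 0.951). Rps27 had 1261, 1274, 1359 and 1206 CPM in KO, against 1339.8, 1328, 1080.1 and 1347 CPM in WT, and Sample_2914_WT held 80.7% of the mean of the other WT libraries. Rps29, likewise a zinc-binding protein, had 703, 678, 783 and 665 CPM in KO, against 755, 756, 346 and 753 CPM in WT. The other 3 WT libraries of Rps29 had an SD of 1.43 CPM, and Sample_2914_WT held 45.8% of their mean, the lowest share in the small subunit.

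In the large subunit, the 5 highest log2 fold changes of all 76 genes belonged to Rpl35 (0.31), Rpl24 (0.29), Rpl28 (0.22), Rpl19 (0.21) and Rpl27 (0.16), and none passed the test (adjusted p between 0.678 and 0.848). Rpl35, which sits at the exit of the peptide tunnel, had 115, 119, 127 and 132 CPM in KO, against 142, 127, 21.1 and 123 CPM in WT. Leaving Sample_2914_WT aside, the KO and WT libraries of Rpl35 overlapped. Rpl28 had 367, 365, 421 and 376 CPM in KO, against 387, 406, 156 and 378 CPM in WT. Rpl19, which forms a bridge to the small subunit, had 639, 620.1, 696 and 652 CPM in KO, against 652, 691, 275 and 647 CPM in WT. For both genes the positive value came with 1 low WT library, and the other WT libraries lay within the range of the KO libraries. Rpl24, likewise part of a bridge between the subunits, was barely counted and had 2.81, 3.62, 2.70 and 3.48 CPM in KO, against 1.54, 2.70, 3.25 and 2.34 CPM in WT.

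The 5 lowest values belonged to Rpl13a (-0.18), Rpl29 (-0.16), Rpl8 (-0.14), Rplp0 (-0.14) and Rps3 (-0.11). Rpl8, a protein close to the peptidyl transferase centre, had 1505, 1368, 1672 and 1504 CPM in KO, against 1737, 1744, 1577 and 1610.3 CPM in WT (log2 fold change -0.14 ± 0.06 SE, adjusted p = 0.165). Of the KO libraries only Sample_2909_KO reached the WT range, and without it Rpl8 was called lower in KO (log2 fold change -0.19, edgeR adjusted p = 0.0344). Rpl13a, known also for silencing inflammatory transcripts in human myeloid cells, had 38.6, 44.5, 44.2 and 45.1 CPM in KO, against 40.3, 55.7, 52.5 and 45.5 CPM in WT (log2 fold change -0.18 ± 0.09 SE, adjusted p = 0.327). Rpl29 varied most of the 76 genes among the KO libraries, relative to its mean. It had 71.8, 159.7, 291 and 273 CPM in KO, against 302, 302, 116 and 186 CPM in WT, with 43 other annotated genes holding stretches of its coding sequence. Sample_2907_KO was the lowest of its 8 libraries.

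**Figure D3:**
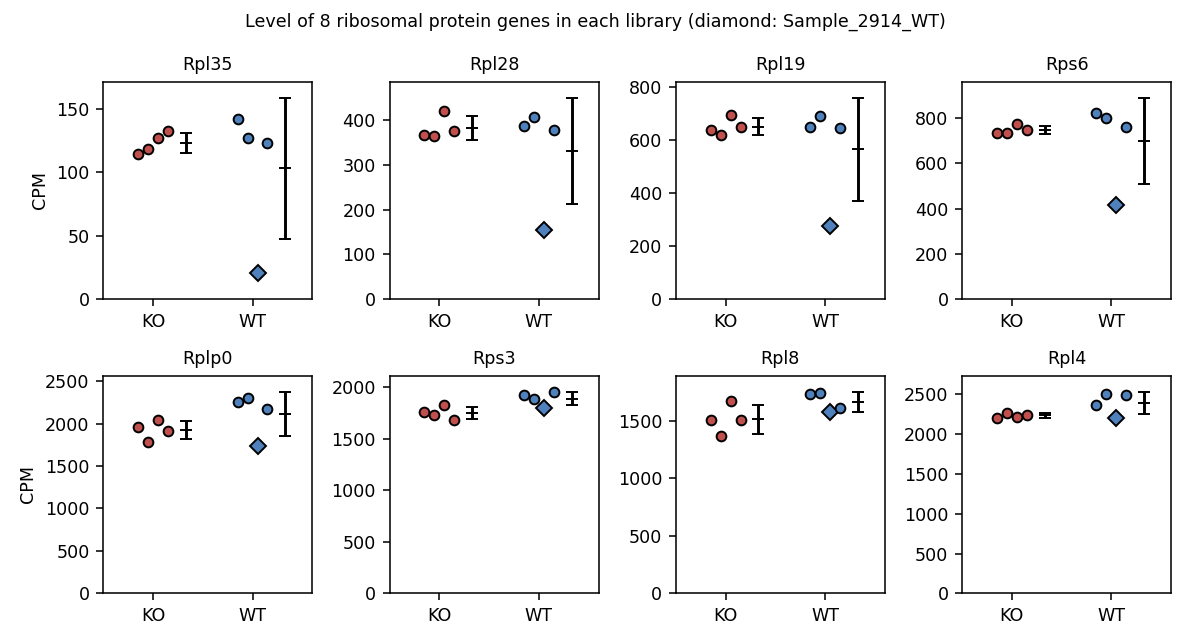
Levels (CPM, vertical axis from 0) of 8 ribosomal protein genes in each KO library (red, left) and each WT library (blue, right), with the mean ± SD of the 4 libraries beside each group in black. Sample_2914_WT, drawn as a diamond, is far below the other libraries for Rpl35, Rpl28, Rpl19 and Rps6 and closer to the other WT libraries for Rps3, Rpl8 and Rpl4.

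Several large subunit proteins act outside the ribosome. Rpl5 and Rpl11 bind 5S rRNA and, when ribosome assembly is disturbed, restrain MDM2 and so stabilize p53. Rpl5 had 621, 631, 685 and 664 CPM in KO, against 747, 740.4, 409 and 742 CPM in WT (log2 fold change -0.02 ± 0.20 SE, adjusted p = 0.981). Rpl11 had 493, 512, 563 and 524 CPM in KO, against 554, 599, 311 and 544 CPM in WT (log2 fold change 0.06 ± 0.21 SE, adjusted p = 0.924). In both genes Sample_2914_WT was the lowest library.

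Rpl22 is needed for the development of alpha-beta T cells in mice. It had 348, 392, 392 and 371 CPM in KO, against 378, 413, 348 and 403 CPM in WT, the groups overlapped (log2 fold change -0.04 ± 0.06 SE, adjusted p = 0.82), and Sample_2914_WT held 87.5% of the mean of the other WT libraries. Rpl10, which joins the large subunit last and is mutated in human T cell leukaemia, had 662, 641, 684 and 619 CPM in KO, against 689, 677, 439 and 713 CPM in WT (log2 fold change 0.05 ± 0.16 SE, adjusted p = 0.917). Sample_2914_WT was again the lowest library for Rpl10. Rpl38, which in mice directs the translation of Hox mRNAs, had 189, 182, 199 and 178 CPM in KO, against 173, 190.3, 130.0 and 181 CPM in WT (log2 fold change 0.16 ± 0.10 SE, adjusted p = 0.497). The log2 fold change was 0.10 for Rpl41 (adjusted p = 0.656), Rpl15 had one of 0.07 (adjusted p = 0.874) and Rpl23a one of 0.05 (adjusted p = 0.94).

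The stalk proteins had negative values without passing the test. Rplp0, the base of the stalk, had 1956, 1779, 2047 and 1914 CPM in KO, against 2256, 2299, 1736 and 2172 CPM in WT (log2 fold change -0.14 ± 0.08 SE, adjusted p = 0.377). Rplp1, which pairs with Rplp2 at the tip of the stalk, had 1332, 1195, 1474 and 1284 CPM in KO, against 1525, 1634, 913 and 1553 CPM in WT (log2 fold change -0.09 ± 0.20 SE, adjusted p = 0.881). Sample_2914_WT was the lowest library for both. Rplp2 had 817, 728, 879 and 873 CPM in KO, against 953, 1000.5, 660.2 and 911 CPM in WT (log2 fold change -0.09 ± 0.14 SE, adjusted p = 0.807). Rpl12, which anchors the stalk together with Rplp0, had 1301, 1307, 1449 and 1409 CPM in KO, against 1572, 1602, 967 and 1589 CPM in WT (log2 fold change -0.07 ± 0.17 SE, adjusted p = 0.902). In all 4 genes every WT library except Sample_2914_WT lay above every KO library.

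The depth of the shift in Sample_2914_WT differed between genes. On the log2 CPM scale, that library minus the mean of the other 3 WT libraries had a median of -0.62 over the 76 genes and 0.01 over all tested genes, whose quartiles were -0.11 and 0.11. In 74 of the 76 genes it lay below each of the other WT libraries, and in 11 it held less than 50% of their mean. The strongest shifts were in Rpl35, where Sample_2914_WT had 21.1 CPM, or 16.1% of the mean of the other WT libraries, and in Rpl28 (39.8%), Rpl36 (41.4%) and Rpl19 (41.5%). Among the weakest of these 74 were those in Rps3 (93.7%) and Rpl8 (92.9%). Sample_2914_WT was above the mean of the other WT libraries in 2 genes, Rpl13a (111%) and Rpl24 (148%).

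The size of this shift went with how much of a gene's coding sequence occurs elsewhere. For each gene the share of its coding 75-base stretches found without a mismatch in an annotated transcript of a gene lying elsewhere was computed, in the sense direction only. Over the 76 genes the median share was 84.3%, 25 genes were at 100% and Rps3 was at 0%. Shares of at least 50% were found in 80.3% of the 76 genes and in 3.32% of 10222 other tested protein-coding genes. Of the 683 pairs of a ribosomal protein gene and another gene holding such stretches, 664 involved an annotated pseudogene.

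The median shift of Sample_2914_WT was -0.11 over the 5 ribosomal protein genes with a share under 10%, -0.23 over the 10 with 10% to 50%, -0.64 over the 28 with 50% to 90% and -0.72 over the 33 with 90% or more. Other protein-coding genes above a mean level of 16 CPM showed the same order with smaller values. Their medians were 0.02 (6798 genes), -0.09 (365), -0.21 (154) and -0.36 (51) in the same 4 classes. Across the 76 genes Spearman's rho between the share and the shift was -0.54 and Pearson's r -0.50, given as a description, since all points share the same 4 WT libraries and the genes are not independent. With 36-base stretches rho was -0.57. For the number of other genes holding such stretches rho was -0.44 and r only -0.18. Coding length (rho -0.03) and mean level (rho 0.20) went less closely with the shift.

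**Figure D4:**
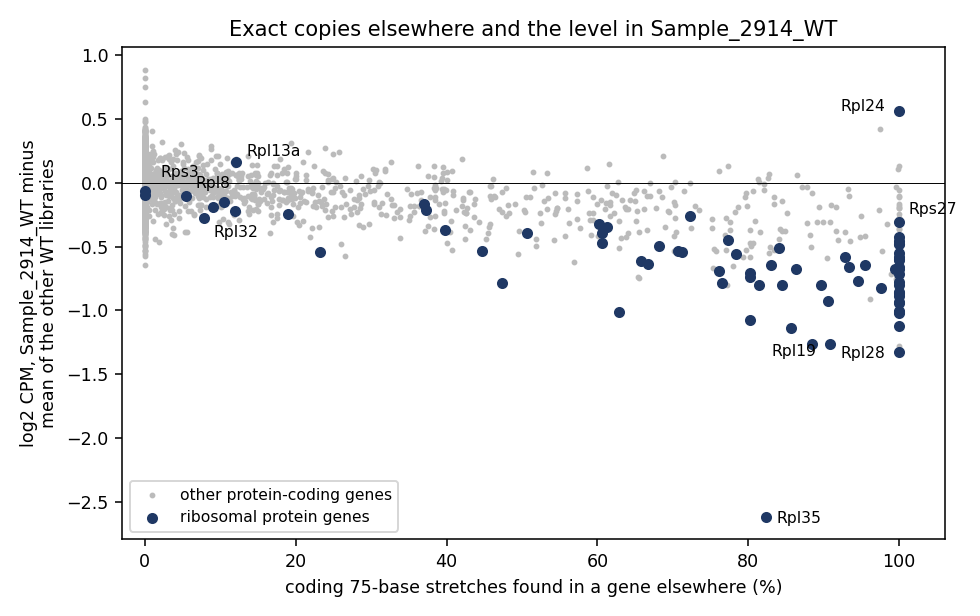
Share of a gene's coding 75-base stretches found in a gene elsewhere (%, horizontal axis) against the log2 CPM of Sample_2914_WT minus the mean of the other WT libraries (vertical axis), for the 76 ribosomal protein genes (dark blue, some named) and other protein-coding genes of at least 16 CPM (grey). Of the ribosomal protein genes, those with a share under 10% have a median of -0.11 and those with a share of 90% or more one of -0.72, with Rpl35 at -2.62 and Rpl24 above 0 at 0.56.

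Apart from its depth, Sample_2914_WT was compared with the other libraries on a few further measures. Reads in genes named as ribosomal protein pseudogenes summed, without TMM scaling, to 85.2 CPM in Sample_2914_WT. The other WT libraries had 101, 93.6 and 92.3 CPM, and the KO libraries 86.1 to 101 CPM. All pseudogenes took 0.517% of the reads of Sample_2914_WT, against 0.511% to 0.545% in the other WT libraries and 0.561% to 0.653% in KO. Mitochondrially encoded genes took 1.98% of its reads, and 1.78%, 1.79% and 2.01% in the other WT libraries. Thinning every library at random to the reads of the shallowest left the number of ribosomal protein genes called at 0, as it was before. Random thinning keeps the expected share of each gene, so it says nothing about the shift. The part of depth or of reads with several sources in the shift was not tested.

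The 15 ribosomal protein genes with a share under 50% had a median log2 fold change between KO and WT of -0.09, and 13 of the 15 were negative. The 61 genes with a larger share had a median of 0.03, and 41 of them were positive. The split at 50% was set after the values had been seen. Rpl4, which lines the peptide tunnel, had 2206, 2271, 2220.3 and 2247 CPM in KO, against 2373, 2506, 2209 and 2494 CPM in WT (log2 fold change -0.10 ± 0.05 SE, adjusted p = 0.305). Rpl32 had 819, 816, 854 and 800.2 CPM in KO, against 913, 929.6, 762 and 919.9 CPM in WT (log2 fold change -0.10 ± 0.06 SE, adjusted p = 0.399). For Rpl4 and Rpl32, as for Rps3, the WT libraries other than Sample_2914_WT lay above every KO library.

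Without Sample_2914_WT, 11 of the 76 genes were called lower in the 4 KO against the other 3 WT libraries and 0 higher (edgeR, adjusted p between 0.0104 and 0.0490). At an unadjusted p under 0.05 it was likewise 0 genes higher, and the share of all tested genes higher at that threshold is not given here. In the same fit 1.87% of all tested genes were called lower and 3.16% higher. The 11, which are named because this fit called them, were Rplp0, Rplp1, Rplp2, Rpl12, Rpl36a, Rpl17, Rpl3 and Rpl5 of the large subunit and Rps20, Rps24 and Rps4x of the small subunit. Their log2 fold changes lay between -0.25 and -0.17, that is, levels between 10.8% and 15.97% lower in KO. With all 8 libraries the adjusted p of these 11 genes lay between 0.377 and 0.981. The fit is described because the 76 genes themselves were low in Sample_2914_WT. Leaving out a library that is low for the tested genes raises their WT mean and narrows their WT spread. The p-values and counts of this fit therefore describe the other libraries and are not independent support for a difference.

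Rplp1 changed most among them, with 1321 ± 117 CPM in the 4 KO libraries and 1570.5 ± 56.6 CPM in the 3 WT libraries (SD; log2 fold change -0.25, adjusted p = 0.0104). Rplp0 averaged 1924 ± 111 CPM in the 4 KO libraries and 2243 ± 64.6 CPM in the 3 WT libraries (SD; log2 fold change -0.22, adjusted p = 0.0114). Rplp2 averaged 824 ± 69.9 CPM in the 4 KO libraries and 955 ± 44.7 CPM in the 3 WT libraries (SD; log2 fold change -0.21, adjusted p = 0.0381). All 3 stalk proteins were called lower in this fit, and their KO libraries lay below these 3 WT libraries. Rpl36a had 278, 300.3, 312 and 287 CPM in KO, against 336, 346, 249 and 343 CPM in WT, and without Sample_2914_WT its log2 fold change was -0.22 (adjusted p = 0.0215). Rpl17 had 1045, 1055, 1054 and 1046 CPM in KO, against 1173, 1195, 789 and 1176 CPM in WT, with KO libraries that differed among themselves by 5.13 CPM (SD, n = 4). Its log2 fold change without Sample_2914_WT was -0.17 (adjusted p = 0.0396).

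Rps20 had 828, 787, 892 and 883 CPM in KO, against 971, 1033, 684 and 927 CPM in WT (log2 fold change -0.21, adjusted p = 0.0293 without Sample_2914_WT). Rpl3, a protein of the peptidyl transferase centre, had 932, 866, 937 and 926 CPM in KO, against 1034, 1042, 652 and 1019.6 CPM in WT (log2 fold change -0.17, adjusted p = 0.0479 without Sample_2914_WT). In both genes all 4 KO libraries lay below the 3 WT libraries and above Sample_2914_WT. Rpl12, Rpl5, Rps24 and Rps4x had log2 fold changes of -0.22 (adjusted p = 0.0119), -0.19 (adjusted p = 0.0281), -0.17 (adjusted p = 0.0465) and -0.17 (adjusted p = 0.049) in the same fit.

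Across the 76 genes the median log2 fold change without Sample_2914_WT was -0.12, with 73 negative and 3 positive values, and over all tested genes it was -0.01. At an unadjusted p under 0.05 the fit picked 33 of the 76 as lower in KO, against 7.29% of all tested genes. In 31 genes all KO libraries lay below the 3 WT libraries, against 6.74% of all tested genes. Genes with a share of copies under 50% had a median of -0.14 in this fit and the rest one of -0.11. The 11 calls, like the signs and counts above, rest on leaving out 1 library that was low for these same genes. Leaving out Sample_2911_WT as well left 2 of the 11 calls, Rpl12 and Rplp1. Leaving out any other single library gave 0 calls, except for the 1 call of Rpl8 without Sample_2909_KO.

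**Figure D5:**
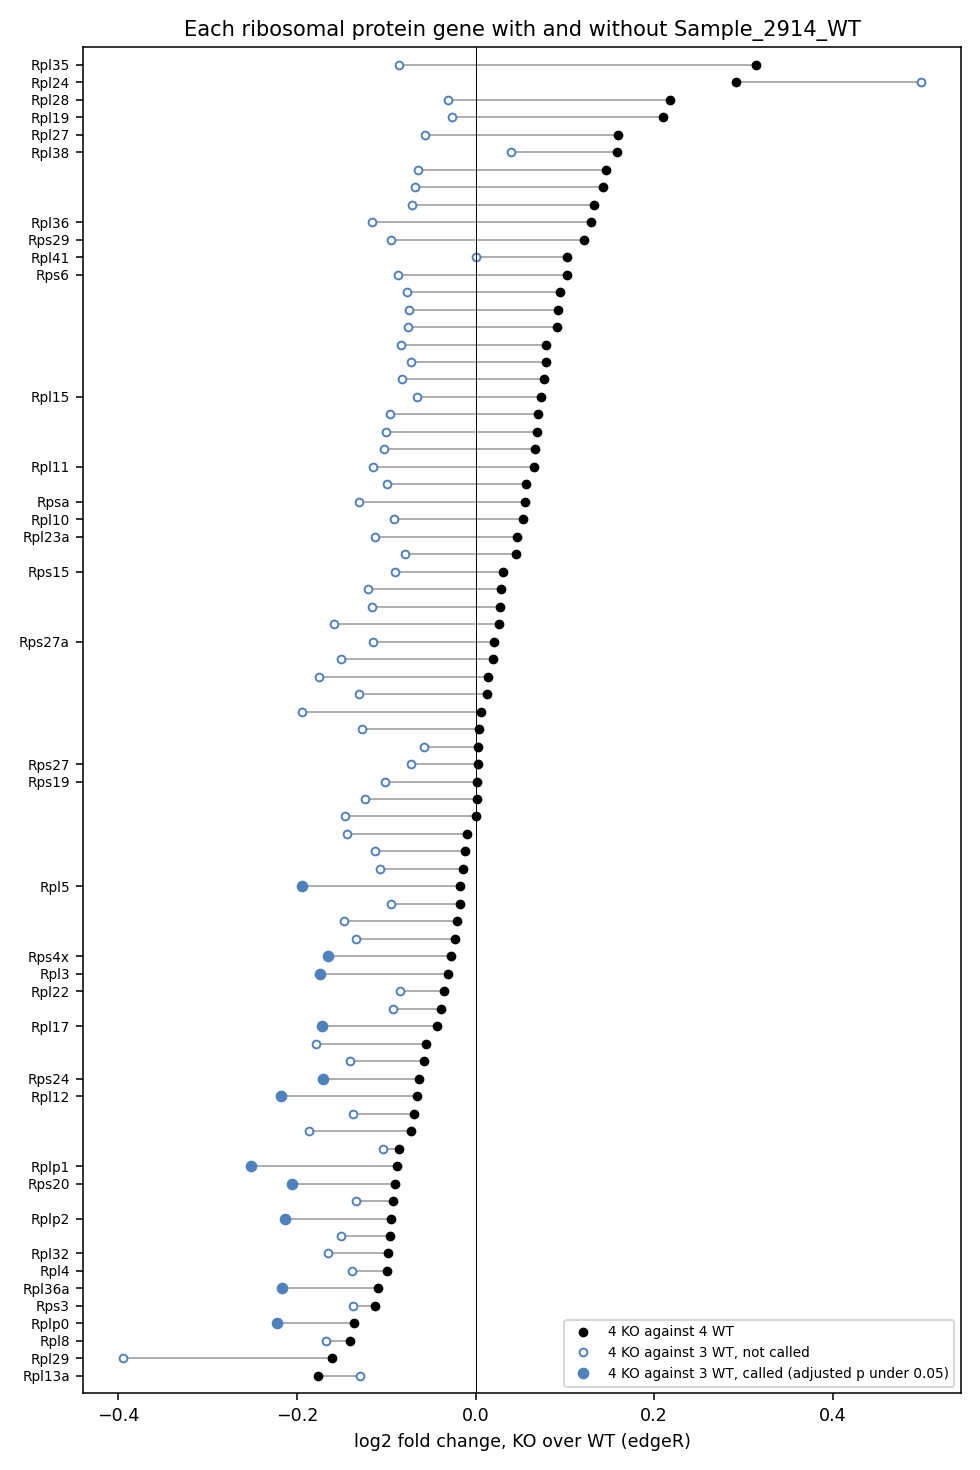
Log2 fold change of KO over WT (horizontal axis) for each of the 76 ribosomal protein genes, ordered by its value over all 8 libraries (black), with the genes described in the text labelled, and joined to its value without Sample_2914_WT (open blue, or filled blue where called). With all libraries the genes lie on both sides of 0 and none is called, and without Sample_2914_WT 73 of 76 are negative and 11 are called.

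Of 8 ribosomal proteins and paralogs with other symbols, edgeR called 1 higher and 0 lower, against 3.98% higher and 2.41% lower of all tested genes. At an unadjusted p under 0.05 it picked 3, against 18% of all tested genes, and the median log2 fold change was -0.04. DESeq2 and limma-voom also called 1, and limma-trend 0. Fau, which encodes a ubiquitin-like protein fused to a small subunit protein, had 492, 460.4, 570.4 and 490.0 CPM in KO, against 529, 533, 270.1 and 509 CPM in WT (log2 fold change 0.14 ± 0.23 SE, adjusted p = 0.836), with a share of copies of 100%. Rps3a1 had 1028, 1015, 1016 and 944 CPM in KO, against 1042, 1077, 737 and 1086 CPM in WT (log2 fold change 0.02 ± 0.12 SE, adjusted p = 0.954). For both, Sample_2914_WT was the lowest library. Rack1, a signalling scaffold on the small subunit with no shared stretch, had 1827, 1772, 1932 and 1818 CPM in KO, against 1988, 2045, 1905 and 1983 CPM in WT. Every WT library except Sample_2914_WT lay above every KO library for Rack1, which was not called (log2 fold change -0.11 ± 0.05 SE, adjusted p = 0.233). Rpl7l1, a paralog of Rpl7 that acts in ribosome assembly, rose in KO. It had 62.0, 69.1, 68.4 and 62.5 CPM in KO, against 60.2, 55.9, 53.0 and 51.0 CPM in WT (log2 fold change 0.26 ± 0.08 SE, adjusted p = 0.0312), with no overlap between the groups, and without Sample_2914_WT it was not called (adjusted p = 0.114).

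Elongation factors and other genes with TOP mRNAs had 1 gene higher and 3 lower of 22 tested, where 3.98% of all tested genes were higher and 2.41% lower, with a median log2 fold change of -0.06. At an unadjusted p under 0.05 edgeR picked 8 of the 22, against 18% of all tested genes. In 9 of the 22 Sample_2914_WT was the lowest of the 8 libraries, against 10.3% of all tested genes. Its level minus the other WT libraries had a median of -0.13 on the log2 CPM scale, so low values in that library were not confined to the 76 genes. Eef1b2, an exchange factor for eEF1A, fell in KO. It had 690.5, 713, 719 and 685 CPM in KO, against 794, 797, 779.9 and 799 CPM in WT (log2 fold change -0.17 ± 0.05 SE, adjusted p = 0.0268), and Sample_2914_WT lay with the other WT libraries. Of the 3 noncoding snoRNA hosts in the list, Gas5 and Snhg1 fell and Snhg8 was not called (log2 fold change -0.06 ± 0.10 SE, adjusted p = 0.831). Gas5 had 201, 235, 219 and 199 CPM in KO, against 267, 274, 271 and 283 CPM in WT (log2 fold change -0.36 ± 0.06 SE, adjusted p = 7.74e-05), and Snhg1 had 71.6, 88.1, 84.9 and 81.6 CPM in KO, against 91.5, 107, 109.7 and 103 CPM in WT (log2 fold change -0.34 ± 0.07 SE, adjusted p = 0.00251). In Gas5 and Snhg1 the groups did not overlap. Vim, the gene of the intermediate filament vimentin, rose in KO. It had 471, 407, 499 and 485 CPM in KO, against 377, 422, 373 and 367 CPM in WT (log2 fold change 0.28 ± 0.06 SE, adjusted p = 0.00378), and the groups overlapped in Sample_2908_KO and Sample_2913_WT. Eef1a1, the most abundant gene of this list, was not called (log2 fold change -0.03 ± 0.09 SE, adjusted p = 0.916), and in Sample_2914_WT it held 73.8% of the mean of the other WT libraries. Without Sample_2914_WT, Eef2 (log2 fold change -0.19, adjusted p = 0.0402) and Tpt1 (log2 fold change -0.17, adjusted p = 0.0465) were called lower as well, which gave 5 lower and 1 higher of the 22, against 1.87% lower and 3.16% higher of all tested genes.

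Of 37 ribosome biogenesis genes tested, 2 were called lower and 0 higher by edgeR, and by DESeq2, limma-voom and limma-trend 2 each. Of all tested genes edgeR called 2.41% lower. At an unadjusted p under 0.05 it picked 5 of the 37, against 18% of all tested genes, and the median log2 fold change was -0.04. Wdr12, a subunit of the PeBoW complex that processes large subunit rRNA, had 41.8, 38.3, 31.7 and 37.0 CPM in KO, against 53.7, 57.5, 50.9 and 52.0 CPM in WT (log2 fold change -0.52 ± 0.09 SE, adjusted p = 1.94e-04). Gnl3, which encodes the nucleolar GTPase nucleostemin, had 81.5, 86.2, 88.7 and 84.4 CPM in KO, against 108, 92.5, 105 and 104 CPM in WT (log2 fold change -0.27 ± 0.07 SE, adjusted p = 0.00888). Every KO library lay below every WT library for both. Of 23 initiation factors, 22 growth regulators of ribosome synthesis and 77 mitochondrial ribosomal protein genes, edgeR called 0, with 4 in each list at an unadjusted p under 0.05, against 18% of all tested genes. Their median log2 fold changes were 0.05, 0.04 and 0.04. DESeq2 called 0, 1 and 0 of these 3 lists, limma-voom 0, 2 and 0, and limma-trend 0, 1 and 0. The extra calls were Ddit4 and, with limma-voom, Sesn1, both stress-induced inhibitors of mTORC1. Sample_2914_WT minus the other WT libraries had a median of 0.00, 0.02 and -0.03 over these 3 lists and 0.01 over the ribosome biogenesis genes. Even so, Sample_2914_WT was the lowest of the 8 libraries for 8 of the 23 initiation factors, against 10.3% of all tested genes. For growth regulators this count was 1 of 22, for mitochondrial ribosomal protein genes 13 of 77 and for ribosome biogenesis genes 3 of 37.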

How the data were processed

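Per the labels' protocols, polyA RNA was made into TruSeq v2 libraries, which do not mark the strand, and sequenced as single reads of 75 bases. Per the submitters' processing notes, the build was mm10, and DESeq2 1.22.2 and R 3.5.3 were used along with FastQC and CASAVA 1.8.2. Which aligner, counter and gene annotation were used is not given in the sources used here. The authors deposited whole-number read counts for 53465 genes. They also deposited a normalized signal table of the 16418 genes with at least 10 reads, in which a sample's counts are all divided by the same size factor.

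The test was that of edgeR 4.0.16, run in R 4.3.3: TMM, filterByExpr, robust quasi-likelihood F test of 4 KO against 4 WT, Benjamini-Hochberg over all tested genes, called at an adjusted p under 0.05. SE was taken as the size of the log2 fold change divided by the root of F. Log2 CPM values used a prior count of 2. Alternatives were DESeq2 1.42.0, limma 3.58.1 (voom, and limma-trend on the deposited values plus 1 or 10), other scalings and filters, thinning, and leaving out libraries. On simulated counts for 11772 genes, 88% of genes changed 1.5-fold and 100% of those changed 2-fold were recovered, and 5.85% of the calls were unchanged genes. No change below 1.5-fold was simulated, and every library of a group had the same simulated mean. These rates therefore do not cover changes as small as those of the ribosomal protein genes, nor a group with 1 shifted library. All pairs of libraries within a group differed beyond sampling noise (chi-square per gene between 2.67 and 11.3).

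Shared sequence was counted as exact 75-base matches of GENCODE M21 coding sequences to transcripts of genes that do not overlap them. A genome-wide match was not made. The members, lists and tests were chosen with earlier results of these data known. Genes named were the 5 highest and 5 lowest log2 fold changes, the 8 highest and 5 lowest levels per kilobase, 15 members with a known role of their own, called members of the fixed lists and the most abundant of them. Genes called without Sample_2914_WT, and Rpl4, Rpl23, Rpl32, Rpl35a, Rpl36 and Snhg8, were named after their values were seen. A few genes are not reported here. Intervals cover counting error only.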

Additional observations from a re-analysis of the deposited data

Results flagged for a closer look

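In 4 samples of 1 group, a library was picked out when its gap to the nearest other library, divided by the range of the group, exceeded Dixon's 95% critical value, which chance does for about 1 in 20 groups. Among the 76 ribosomal protein genes this happened in 40 genes in WT, in all 40 with Sample_2914_WT as the low library, and in 4 genes in KO. Over all tested genes it happened for 5.09% in KO and 5.76% in WT. The gap is given below as a share of the range. Values follow for the genes described in the report and for shares of reads.

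In WT, Sample_2914_WT was picked out for the share of reads in all ribosomal protein genes (0.924), in small subunit genes (0.936) and in large subunit genes (0.915). It was also picked out as the low WT library for the small subunit genes Rps19 (0.932), Rps24 (0.844), Rps27 (0.932), Rps27a (0.870), Rps29 (0.993), Rps4x (0.932), Rps6 (0.852) and Rpsa (0.954). In the large subunit it was picked out for Rpl10 (0.872), Rpl12 (0.953), Rpl17 (0.946), Rpl19 (0.894), Rpl27 (0.894), Rpl28 (0.889), Rpl3 (0.944), Rpl32 (0.900), Rpl35 (0.843), Rpl36a (0.896), Rpl41 (0.836), Rpl5 (0.981) and Rplp1 (0.849). Outside the 76 it was picked out for Fau (0.911), Rps3a1 (0.874) and Eef1a1 (0.932).

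The 4 ribosomal protein genes picked out in KO included 2 with a low library. Sample_2907_KO was the low library for Rpl13a (0.858) and Sample_2908_KO for Rpl3 (0.851). The other 2, Rpl23 (0.879) and Rpl35a (0.841), had Sample_2909_KO as the high library. Outside the 76, Sample_2908_KO was the low KO library for Eef2 (0.873) and Sample_2910_KO for Rps3a1 (0.850).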

How the results depend on the processing

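The number of ribosomal protein genes called stayed at 0 under other scalings, count filters, tools, pseudocounts, the non-robust fit and thinning to the shallowest library. Leaving out 1 library at a time it ran between 0 and 11, with 11 without Sample_2914_WT and 1, Rpl8, without Sample_2909_KO. It was 2 without Sample_2911_WT and Sample_2914_WT together, and 11 without Sample_2914_WT when the scaling factors were computed without ribosomal protein genes, an alternative chosen after seeing the data. The cause was not tested. Their median log2 fold change lay between -0.12 and 0.06 when 1 library was left out, negative without Sample_2909_KO or Sample_2914_WT. Over the 15 genes with a share of copies under 50% it was -0.09. The share of reads in KO minus WT ran between -0.52 and 0.07 percentage points with 1 library left out, against -0.098 with all 8. Genes called over the whole table numbered 752, between 562 and 836 with 1 library left out, and 481 without Sample_2911_WT and Sample_2914_WT together. For 30 named ribosomal protein genes under 20 alternatives, 536 values kept direction and call, 10 gained a call and 54 changed sign without a call, 30 of them where Sample_2914_WT was left out. No paired analysis was possible because the sample numbers are not shared between KO and WT. Depth limits the scarcely counted Rpl24 (2.81 CPM on average) most.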
